A study of Mus musculus with 6 samples.

Results

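Promoters that carried only noncoding transcripts were described here in H3K9ac profiles of mouse intestinal epithelium. H3K9ac is acetylation of lysine 9 of histone H3, read by chromatin immunoprecipitation and sequencing. A promoter interval was taken where the authors' peak list called it a promoter and every RefSeq transcript listed for it had a noncoding accession. These intervals were merged over the 6 libraries at an overlap of 1 bp or more. This gave 321 regions, out of 12523 promoter regions and 23983 nuclear regions of any kind. The 321 regions named 234 transcript accessions and 232 gene symbols. By the RefSeq gene table, 215 of the regions belonged to long noncoding RNAs (lncRNAs), 31 to microRNAs, 29 to noncoding transcripts of protein-coding genes, 25 to pseudogenes and 19 to small nuclear or nucleolar RNAs. The genes of 2 regions, Rn45s and BC030870, had no match in that table.

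Epithelium was taken from the distal gut of C57BL/6 mice. They were conventionally housed, E. coli-monoassociated (colonized with that bacterium alone) or germ-free, and each group had 2 libraries. No genotype other than the strain, no agent and no age was stated for any group. The labels do not say whether each library is a different animal, so replicate spread may be technical only.

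H3K9 acetylation is placed by acetyltransferases at promoters in use and removed by histone deacetylases, and it is read as a mark of active transcription starts. Most lncRNAs and microRNA precursors are made by RNA polymerase II, as messages are, but act as RNA. A microRNA is cut from a hairpin in a longer primary transcript and pairs with target messages mainly through its seed, the bases near its 5′ end. Small nucleolar RNAs are cut from introns of host transcripts and guide the modification of ribosomal RNA. Long noncoding RNAs include scaffolds of nuclear bodies, such as Neat1, and transcripts that act on the gene next to them. In the intestinal epithelium, miR-192, miR-194 and miR-215 are abundant, and the miR-200 family keeps cells epithelial by repressing the Zeb factors.

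MicroRNAs of the loci that the results turn on are shown with the seed, bases 2 to 8, in capitals. Sequences are those of RefSeq on GRCm38.p6. The first 3 come from a pair of loci, Mir194-2 and Mir192 on chromosome 19 and Mir194-1 and Mir215 on chromosome 1. The next 4 come from a pair of miR-200 clusters, Mir200b and Mir200a on chromosome 4 and Mir200c and Mir141 on chromosome 6. The last 2 come from Mir21a and Mir22 on chromosome 11.
miR-192-5p: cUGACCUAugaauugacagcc
miR-215-5p: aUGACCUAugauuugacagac
miR-194-5p, the same from both loci: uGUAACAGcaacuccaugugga
miR-200b-3p: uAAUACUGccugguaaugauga
miR-200c-3p: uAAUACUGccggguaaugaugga
miR-200a-3p: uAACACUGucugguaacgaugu
miR-141-3p: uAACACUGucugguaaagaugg
miR-21a-5p: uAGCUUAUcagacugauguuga
miR-22-3p: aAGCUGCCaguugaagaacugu

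Members of these clusters share seeds across chromosomes. miR-192-5p and miR-215-5p had the same seed and differed at 3 of 21 aligned bases. miR-200b-3p and miR-200c-3p shared a seed and differed at 2 of 22 bases, and the same held for miR-200a-3p and miR-141-3p. The seeds of miR-200b-3p and miR-200a-3p differed from each other at 1 base.

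The peak lists held 3113 and 15348 nuclear intervals in the conventional libraries (replicates 1 and 2, the order used throughout), 1986 and 868 in the E. coli libraries and 4428 and 17092 in the germ-free libraries. The labels stated 20 M reads per library, and read counts were not used here. Of 10 epithelial marker genes, the conventional lists had a promoter interval for 9 and 10, the E. coli lists for 8 and 7 and the germ-free lists for 9 and 10. No library had one for any of 8 stromal, 4 endothelial or 8 immune marker genes. The lowest fold in a list lay between 3.62 and 4.28, so weaker enrichment is not seen, and a promoter without an interval may still carry the mark. Fold is the authors' value for each interval, pileup over background, and is used only to describe and rank intervals within 1 list.

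Noncoding-only promoters were called 56 and 223 times in the conventional lists, 29 and 22 times in the E. coli lists and 69 and 215 times in the germ-free lists. The conventional and the germ-free group each held a short and a long list, and both E. coli lists were below every other list. The means were 139.5 ± 118 in the conventional, 25.5 ± 4.95 in the E. coli libraries and 142 ± 103 in the germ-free libraries (SD, n = 2 each). On the log2 scale, conventional minus E. coli was 2.15, conventional minus germ-free was -0.12 and E. coli minus germ-free was -2.27. With 2 libraries against 2, an exact permutation test cannot give a p below 0.333, which both comparisons with E. coli had (two-sided), while conventional against germ-free had an exact permutation p of 1. Without conventional replicate 1 or without germ-free replicate 2, conventional minus germ-free turned positive, at 0.87 and 0.70. With each list cut to its 868 most significant intervals, the length of the shortest, conventional minus E. coli was 0.18 and E. coli minus germ-free -0.20 (exact permutation p = 0.667 for each, two-sided).

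As a share of each list's promoter intervals, noncoding-only promoters made up 2.46 and 2.24% in the conventional lists, 2.89 and 4.77% in the E. coli lists and 2.52 and 2.25% in the germ-free lists. The 95% Wilson intervals, which cover counting error only, ran from 1.90 to 3.19% and 1.97 to 2.55% in the conventional lists. They ran from 2.02 to 4.12% and 3.17 to 7.12% in the E. coli lists, and from 1.99 to 3.17% and 1.98 to 2.57% in the germ-free lists. Conventional minus E. coli was -1.48 percentage points and E. coli minus germ-free was 1.44, each at the smallest p an exact permutation can give here, 0.333. Conventional minus germ-free was -0.0329 percentage points (exact permutation p = 0.667, two-sided), a difference below the SD of the conventional (0.158 percentage points) and of the germ-free libraries (0.185). That sign turned round without conventional replicate 2, at 0.0792, and without germ-free replicate 1, at 0.0979. Regions of ribosomal DNA and of near-identical gene copies, left out in a step chosen after the data were seen, moved the shares to 2.29 and 2.18% in the conventional, 2.19 and 3.69% in the E. coli lists and 2.33 and 2.17% in the germ-free lists. E. coli replicate 1 then lay among the other lists, and E. coli replicate 2 alone lay above them. In lists of equal length the shares were 3.82 and 3.23% in the conventional, 4.30 and 4.77% in the E. coli lists and 3.95 and 3.88% in the germ-free lists, and both E. coli lists lay above the rest. Among intervals with a -log10 q of 5 or more they were 3.02 and 1.95%, 5.93 and 13.7%, and 3.27 and 1.83% in the same order of groups. The E. coli shares at that threshold rest on few intervals, 16 of 270 promoter intervals in replicate 1 and 10 of 73 in replicate 2.

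**Figure D1:**
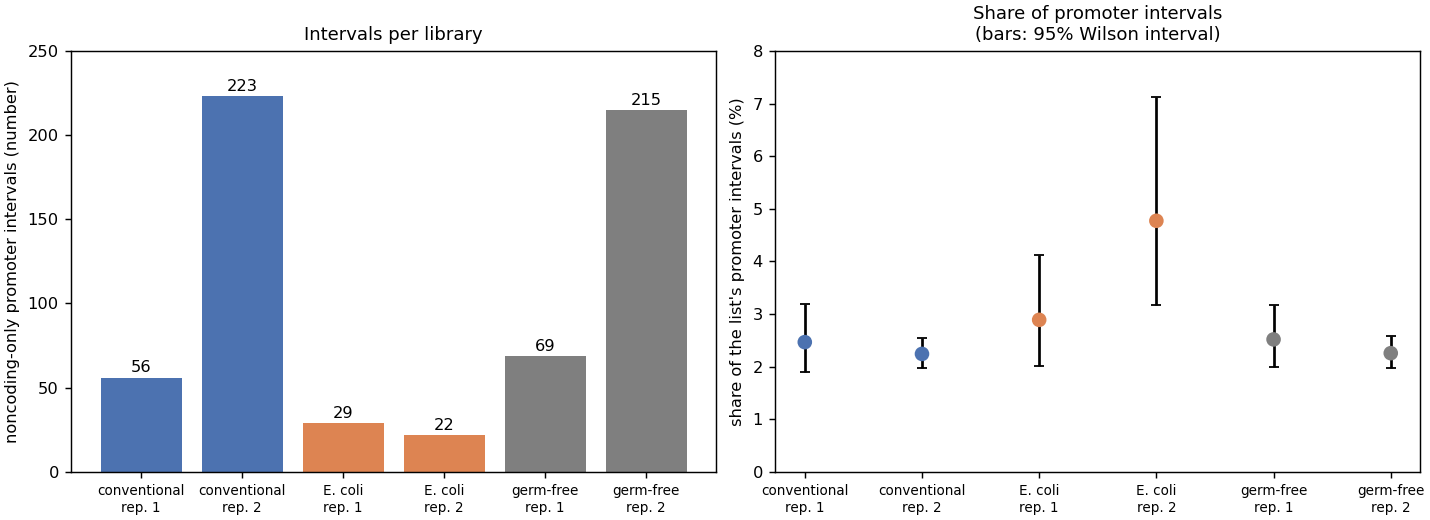
Number of noncoding-only promoter intervals in each library (left) and their share of that library's promoter intervals in percent (right, with 95% Wilson intervals). The numbers run from 22 to 223 while the shares run from 2.24 to 4.77%.

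Most of the 321 regions were called in few libraries. A library was counted as calling a region where any of its intervals overlapped it. Of the 617 calls of this kind, 53, at 36 of the regions, rest on intervals that are not noncoding-only promoter intervals themselves, mostly promoter intervals listed for a coding transcript. In this count 167 regions were called in 1 library, 81 in 2, 37 in 3, 16 in 4, 7 in 5 and 13 in all 6. The share called in 1 library was 52.0%, against 50.7% of all promoter regions. The share called in all 6 was 4.05%, against 1.92%, and that called in 5 or 6 was 6.23%, against 5.13%. Of the 167 regions seen once, 80 were in conventional replicate 2 and 80 in germ-free replicate 2, the longest lists. Those same libraries alone shared 65 of the 81 regions called in 2 libraries. By class, 5 of 31 microRNA regions, 12 of 215 lncRNA regions, 1 of 25 pseudogene regions, 1 of 29 regions of coding genes' noncoding transcripts and 0 of 19 small nuclear or nucleolar RNA regions were called in 5 or 6 libraries. Counting noncoding-only promoter intervals alone, 11 regions had one in all 6 libraries and 5 in 5 libraries.

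Of the 13 regions called in all 6 libraries, 4 lay in repeated or near-identical sequence and are uncertain, since reads could come from other copies. Rn45s, the precursor of ribosomal RNA, had folds of 30.4 and 43.5 in the conventional, 32.0 and 31.4 in the E. coli lists and 28.9 and 58.9 in the germ-free lists. The lncRNA 2700054A10Rik had 20.5 and 30.4, 33.1 and 24.2, and 41.0 and 36.1 in the same order of groups. The pseudogene Pisd-ps2 had 13.4 and 21.0, 14.2 and 9.98, and 16.2 and 15.2 in that order, and the microRNA gene Mir466d 7.78 and 10.1, 8.88 and 7.13, and 6.35 and 17.1. Each of these 4 stood at or above percentile 72.7 of every list. The remaining 9 regions were those of Neat1, Malat1, Chaserr, Gata5os, Mir22hg, 2810410L24Rik, Mir21a, Mir192 with Mir194-2, and Mir194-1 with Mir215.

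**Figure D2:**
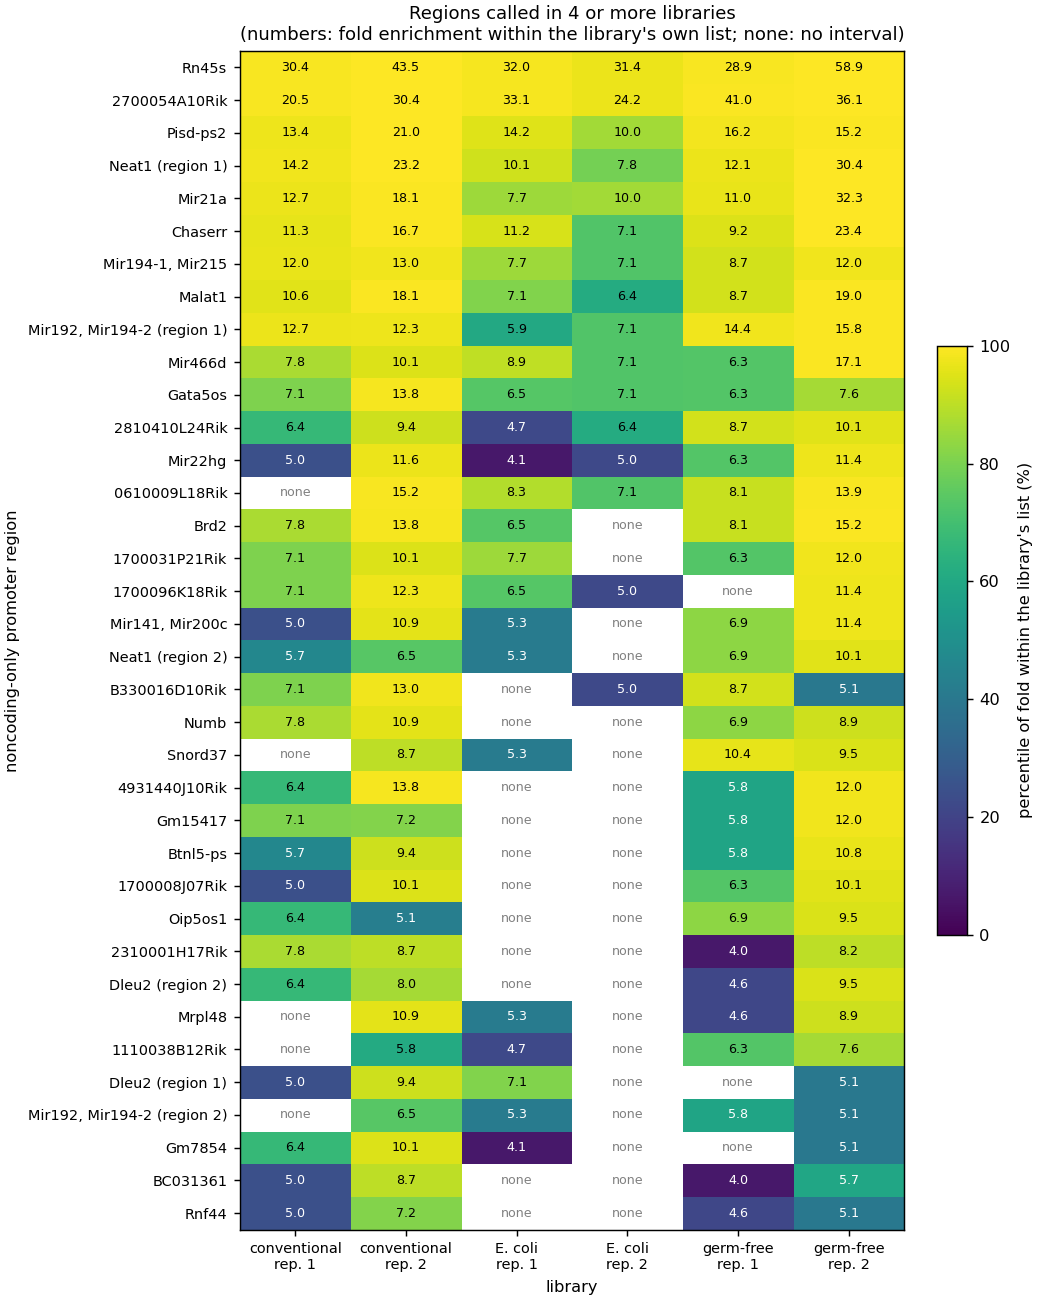
The 36 noncoding-only promoter regions called in 4 or more libraries, by library, counting any overlapping interval. Colour gives the percentile of the region's fold within that library's list, and the printed number the fold. White cells with the word none mark libraries with no interval, which are mostly E. coli libraries.

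MicroRNA genes or hosts made up 4 of those 9 regions. At Mir192 and Mir194-2 (chr19:6263312-6264569, mm10) the fold was 12.7 and 12.3 in the conventional lists, 5.92 and 7.13 in the E. coli lists and 14.4 and 15.8 in the germ-free lists. The conventional and germ-free values stood at or above percentile 97.1 of their lists, the E. coli values at percentiles 60.4 and 72.7. The region ended 75 bp before the first hairpin, so the highest fold of each library lay upstream of both hairpins. A second region (chr19:6264657-6264967) lay over the hairpins and was called in conventional replicate 2, E. coli replicate 1 and both germ-free libraries.

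The sister locus of Mir194-1 and Mir215 lies inside Iars2, on the opposite strand from the nearest coding start in the table. Its region (chr1:185312021-185313913) had folds of 12.0 and 13.04 in the conventional, 7.69 and 7.13 in the E. coli lists and 8.66 and 12.0 in the germ-free lists. It ran over both hairpins and 1298 bp ahead of the first. Intervals within 6 kb of the first hairpin's start covered 1300 and 2057 bp in the conventional, 1028 and 521 bp in the E. coli lists and 1635 and 2061 bp in the germ-free lists. Every library thus had an interval at both loci that can make miR-194-5p.

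Mir21a encodes a microRNA that is widely induced in inflammation and cancer, and its hairpin lies within Vmp1. Its region (chr11:86584013-86587484) reached 3326 bp ahead of the hairpin. The fold was 12.7 and 18.1 in the conventional, 7.69 and 9.98 in the E. coli lists and 10.96 and 32.3 in the germ-free lists. Intervals reaching within 6 kb of the hairpin's start, counted at full width, covered 2608 and 6776 bp in the conventional and 2045 and 1866 bp in the E. coli lists. In the germ-free lists they covered 2590 and 11202 bp. For replicate 2 that includes an interval 5985 to 7637 bp past the hairpin's start. The covered length was thus greatest in the 2 long lists. Most of the intervals there were listed for Vmp1. Mir22hg, the host transcript of miR-22, had its region (chr11:75461564-75462519) 24 bp past the start site and 1197 bp ahead of the hairpin. Its fold was below percentile 25 in conventional replicate 1 and both E. coli lists, with 4.95 and 11.6 in the conventional, 4.14 and 4.99 in the E. coli lists and 6.35 and 11.4 in the germ-free lists.

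The miR-200 clusters were called less widely. At Mir200c and Mir141 (chr6:124717474-124718863) the fold was 4.95 and 10.9 in the conventional lists, 5.33 in E. coli replicate 1 and 6.93 and 11.4 in the germ-free lists. E. coli replicate 2 had no interval there. At Mir200b and Mir200a a merged region (chr4:156055518-156056048) lay over the Mir200b hairpin. It was called in conventional replicates 1 and 2 (4.25 and 6.52) and germ-free replicate 2 (5.70), and in no E. coli library. Of these intervals, that of conventional replicate 2 alone lay over the hairpin itself. That of conventional replicate 1 began 87 bp past the hairpin's start, beyond its end. The interval of germ-free replicate 2 ended 104 bp before the hairpin. Upstream of that hairpin, a Mir200b region was called in conventional replicate 2 (5.79) and germ-free replicate 2 (6.33), and another in germ-free replicate 1 alone (4.04). Between the hairpins, a Mir200a region was called in conventional replicate 2 (3.62). Further upstream, intervals not listed as promoters of these hairpins were present in both conventional libraries, E. coli replicate 1 and both germ-free libraries. They reached a fold of 7.08 and 9.41 in the conventional, 4.73 in the E. coli lists and 6.93 and 13.3 in the germ-free lists. Mir429, the third hairpin of that cluster, had no noncoding-only promoter interval.

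**Figure D3:**
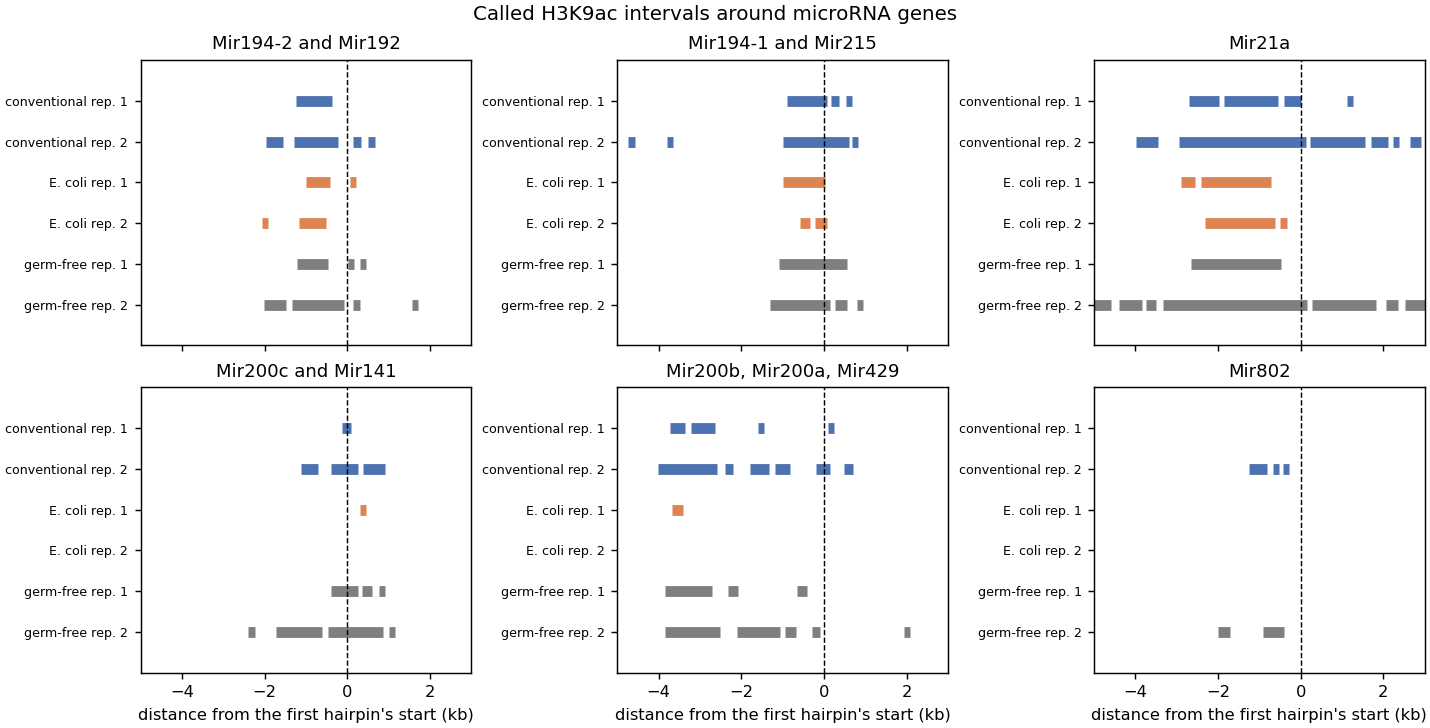
Called intervals of each library around 6 microRNA loci, against the distance in kb from the first hairpin's start in the direction of transcription (dashed line). At Mir194-2 with Mir192 and at Mir21a the interval of highest fold in every library begins upstream of the hairpin, and E. coli replicate 2 has none at Mir200c with Mir141.

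In RefSeq, the start of a microRNA gene is the start of its hairpin and not of its primary transcript, so a window of 1 kb on either side misses promoters farther away. Of 24 microRNA genes with a member region, 21 had a hairpin in the table, 11 had a member region over the hairpin and 10 hairpins lay inside a coding gene. Most others were called in the long lists alone. Mir802, a microRNA of liver and gut epithelium, had an upstream region with folds of 5.79 in conventional replicate 2 and 7.60 in germ-free replicate 2. Mir203, an epidermal differentiation microRNA, had 2 regions in the same libraries, with folds of 10.1 and 6.52 in conventional replicate 2 and 5.70 and 4.43 in germ-free replicate 2. Mirlet7i, of the let-7 family, had 3 regions, called in germ-free replicate 2 and, for 2 of them, in conventional replicate 2. The hairpins of Mir3109 and Mir5123 lie inside Anxa2 and B4galt1, so calls listed for them cannot be told apart from acetylation of those genes. The same limit holds for the other hairpins inside a coding gene, among them Mir21a in Vmp1 and Mir194-1 and Mir215 in Iars2.

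Of 17 epithelial microRNA genes and hosts on the list used here, 10 had a noncoding-only promoter interval in some library. The other 7 were Mir429, Mir31, Mir22, Mir24-2, Mir27a, Mir23a and Mir7-1. Genes that share intervals, as Mir192 with Mir194-2 and Mir194-1 with Mir215, were counted separately. The numbers of genes with an interval were 9 and 10 in the conventional, 7 and 6 in the E. coli libraries and 9 and 10 in the germ-free libraries. With each list cut to 868 intervals they were 5 and 8 in the conventional, 5 and 6 in the E. coli libraries and 5 and 8 in the germ-free libraries. The groups then overlapped. A second list, drawn up for other cell types, held 17 microRNA genes and hosts. It included Mir143 and Mir145a of smooth muscle, Mir126a of endothelium and Mir223 and Mir150 of blood cells. Mir375 and Mir146, also on it, are not particular to cells outside the epithelium. Of these 17, 1 had an interval. It was Mir142, a blood-cell microRNA, in conventional replicate 2, with a fold of 3.62, the lowest in that list. Of 12 host genes of microRNA clusters, Mir22hg and Dleu2 had one.

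Among lncRNAs, Neat1, the scaffold of nuclear paraspeckles, had the best mean rank of the members called in 3 or more libraries outside repeated sequence. Its region (chr19:5840279-5845793) ran from 315 bp before the start site to 5199 bp after it. The fold was 14.2 and 23.2 in the conventional, 10.1 and 7.84 in the E. coli lists and 12.1 and 30.4 in the germ-free lists. Intervals within 6 kb of the start covered 2111 and 3949 bp in the conventional, 1337 and 1180 bp in the E. coli lists and 2297 and 9742 bp in the germ-free lists. A second Neat1 region 546 bp upstream was called in 5 libraries, all but E. coli replicate 2. Malat1, a nuclear speckle RNA made from the neighbouring gene, had folds of 10.6 and 18.1 in the conventional, 7.10 and 6.41 in the E. coli lists and 8.66 and 19 in the germ-free lists. Intervals reaching within 6 kb of its start were counted at full width. In the conventional libraries 3 and 3 covered 2898 and 4463 bp. In the E. coli libraries 2 and 5 covered 500 and 1228 bp, and in the germ-free libraries 5 and 5 covered 2545 and 6855 bp.

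Chaserr, listed as 1810026B05Rik, restrains the level of a neighbouring chromatin remodeler in the mouse. Its region (chr7:73554909-73558479) had folds of 11.3 and 16.7 in the conventional, 11.2 and 7.13 in the E. coli lists and 9.23 and 23.4 in the germ-free lists. The called region began 84 bp before the start site and ran 3486 bp into the gene. Gata5os, listed as Gm14318, is read from the strand opposite Gata5, which encodes a factor of endodermal epithelium. Its region (chr2:180331988-180333530) lay within the Gata5 gene, 1149 bp from a Gata5 start, and had folds of 7.08 and 13.8 in the conventional, 6.51 and 7.13 in the E. coli lists and 6.35 and 7.60 in the germ-free lists. The 13.8 of conventional replicate 2 is that of an interval listed for Gata5 as well. Because the start sites are so close, the mark at Gata5os and at Gata5 cannot be told apart here. 2810410L24Rik, whose function is not known, had folds of 6.37 and 9.41 in the conventional, 4.73 and 6.41 in the E. coli lists and 8.66 and 10.1 in the germ-free lists. In the E. coli lists these were intervals of its exons and introns and not of its promoter, and in germ-free replicate 1 its promoter interval had a fold of 5.19.

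The RefSeq promoter windows (GRCm38.p6, 250 bases before to 50 after the start) of 3 of these genes are shown because their base composition differs widely. A merged region of each gene was called in all 6 libraries, but the interval of a library need not reach the window. At Mir22hg only germ-free replicate 2 had an interval reaching the window, from 24 bp past the start. No interval reached the window at Chaserr in E. coli replicate 2 or at Gata5os in germ-free replicate 1. Capitals mark the CCAAT box letters CCAAT, the GC box letters GGGCGG and the TATA box letters TATAAA. Each window is given 5′ to 3′ on the strand of its gene. A match on the other strand is in capitals too: there the CCAAT box reads ATTGG, and the TATA box reads TTTATA.
Chaserr, chr7:73558346-73558645, minus strand: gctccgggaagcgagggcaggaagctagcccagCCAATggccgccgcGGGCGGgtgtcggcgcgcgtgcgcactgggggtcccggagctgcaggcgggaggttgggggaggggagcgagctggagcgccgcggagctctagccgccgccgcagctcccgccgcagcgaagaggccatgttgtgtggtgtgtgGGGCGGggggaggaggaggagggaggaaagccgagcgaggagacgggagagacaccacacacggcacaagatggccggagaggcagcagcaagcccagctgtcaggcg
Gata5os, chr2:180332607-180332906, plus strand: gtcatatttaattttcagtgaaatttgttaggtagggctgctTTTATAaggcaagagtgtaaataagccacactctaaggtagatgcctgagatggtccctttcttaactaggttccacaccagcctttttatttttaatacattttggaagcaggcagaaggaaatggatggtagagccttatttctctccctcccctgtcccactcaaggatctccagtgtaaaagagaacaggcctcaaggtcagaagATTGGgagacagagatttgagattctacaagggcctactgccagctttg
Mir22hg, chr11:75461289-75461588, plus strand: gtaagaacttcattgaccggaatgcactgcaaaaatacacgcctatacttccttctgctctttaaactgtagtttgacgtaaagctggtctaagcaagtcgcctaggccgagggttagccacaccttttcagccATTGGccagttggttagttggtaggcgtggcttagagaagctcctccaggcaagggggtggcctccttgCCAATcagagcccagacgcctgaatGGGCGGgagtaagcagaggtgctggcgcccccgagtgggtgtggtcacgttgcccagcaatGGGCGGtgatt

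The Chaserr window was 72.3% G and C and held 30 CpG dinucleotides, that of Mir22hg 54.7% and 12, and that of Gata5os 42.7% and 0. Chaserr had a CCAAT match and 2 GGGCGG matches, letters found in many promoters without a TATA box. Mir22hg had 2 of each, and Gata5os had a TATAAA match 208 bases before the start and a CCAAT match at the start. The window of Malat1 held none of the 4 motifs searched, the fourth being GATAAG, the core that GATA factors bind. Over 127 windows of 115 lncRNA genes among the members, GGGCGG was present on either strand in 52.8%, against 16.3% of the windows of all lncRNAs and 46.2% of those of all protein-coding genes. The median number of CpG dinucleotides was 15, against 4 in all lncRNAs and 13 in protein-coding genes. CCAAT was in 37.8, 36.0 and 38.2% of the windows in the same order, TATAAA in 14.96, 15.5 and 12.6%, and GATAAG in 4.72, 8.41 and 6.92%. In all promoter windows GGGCGG was in 35.7%, CCAAT in 37.4%, TATAAA in 13.6% and GATAAG in 7.44%. A match describes the letters of a window and is not a bound site.

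**Figure D4:**
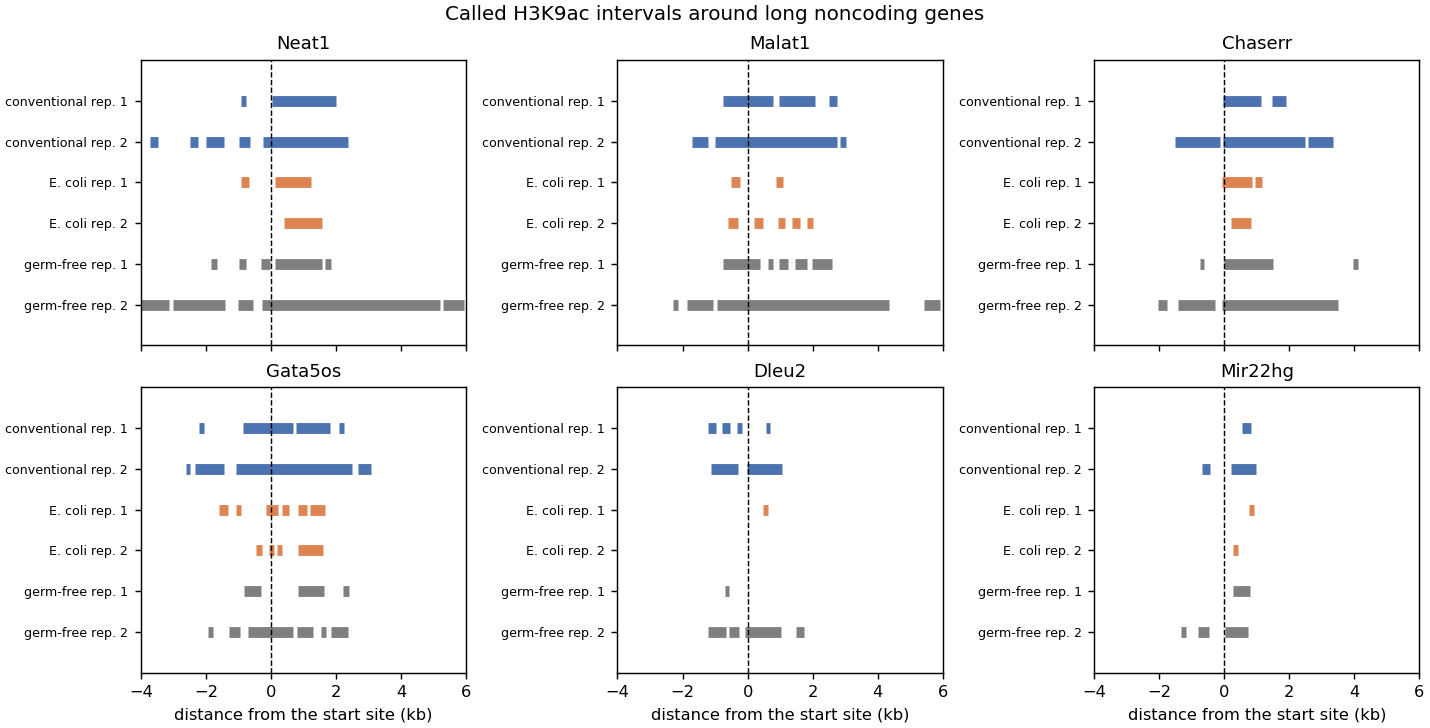
Called intervals of each library around 6 long noncoding genes, against the distance in kb from the start site in the direction of transcription (dashed line). Intervals at Neat1 and Chaserr run mainly into the gene, and at Dleu2 E. coli replicate 2 has none.

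Many of the 321 regions, counted over all classes, lay beside or within a coding gene. All promoter regions were not counted in this way. Of 309 regions on chromosomes with coding start sites in the table, at least 101 lay within 5 kb of one, and 120 of the 321 overlapped the body of a coding gene. Of the 50 regions more than 1 kb and up to 5 kb from the nearest coding start, 38 had that start on the opposite strand. Examples are 0610009L18Rik, 1122 bp from the start of the actin gene Actg1, and 4931440J10Rik, 1100 bp from that of Ints6, a subunit of the Integrator complex. The region of 0610009L18Rik was a noncoding-only promoter interval in E. coli replicate 1 alone, with a fold of 8.29. Intervals listed for both it and Actg1 overlapped that region in conventional replicate 2 (15.2), E. coli replicate 2 (7.13) and both germ-free libraries (8.08 and 13.9). Regions lay over the start site in 63 cases, upstream in 125 and downstream in 133, with a median width of 296 bp. Noncoding transcripts of coding genes gave 29 regions. One at Brd2, an acetyl-lysine reader, was noncoding-only in germ-free replicate 1 alone, with a fold of 8.08. Promoter intervals listed for a coding Brd2 transcript overlapped it in both conventional libraries (7.78 and 13.8), E. coli replicate 1 (6.51) and germ-free replicate 2 (15.2).

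Of 33 regulatory lncRNAs on the list used here, 7 had a noncoding-only promoter interval, namely Malat1, Neat1, Jpx, Airn, Oip5os1, Norad and Lockd, and Tug1 had one shared with a coding transcript. The remaining 25, among them H19, Meg3, Xist and Hotair, had none. Norad, an RNA that sequesters Pumilio proteins, was called in conventional replicate 2 (fold 5.79) and germ-free replicate 2 (5.70). Jpx, a positive regulator of Xist, had folds of 3.62 in conventional replicate 2 and 5.19 and 4.43 in the germ-free lists. Oip5os1, also known as Cyrano, had a region called in both conventional libraries (6.37 and 5.07), neither E. coli library and both germ-free libraries (6.93 and 9.50). Of 12 lncRNAs antisense to or beside intestinal and homeobox factor genes, 2 had an interval. Hnf4aos, opposite the nuclear receptor gene Hnf4a, had folds of 5.07 in conventional replicate 2 and 5.19 in germ-free replicate 1, at different regions. Wincr1 had 3.80 in germ-free replicate 2.

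Host genes of small nucleolar RNAs were called mostly in the long lists and in germ-free replicate 1. Of 21 on the list, 11 had a noncoding-only promoter interval in some library, and 4 more, Snhg1, Snhg9, Snhg10 and Zfas1, had one shared with a coding transcript. The numbers were 1 and 9 in the conventional, 0 and 0 in the E. coli libraries and 5 and 10 in the germ-free libraries. Gas5, whose introns hold many small nucleolar RNAs, had noncoding-only promoter intervals in conventional replicate 2 (fold 6.52) and germ-free replicate 2 (5.70). Its interval in germ-free replicate 1 (5.77) was listed for the coding gene Zbtb37 as well. Snhg3 had 6.52 in conventional replicate 2 and 5.77 and 5.70 in the germ-free lists at its most widely called region. Snhg8 had 5.79 in conventional replicate 2 and 4.62 and 8.24 in the germ-free lists. With each list cut to 868 intervals no library of any group had an interval for any of the 21. Snord37, a small nucleolar RNA within the elongation factor gene Eef2, was the one region of its class called in an E. coli library. It had folds of 8.69 in conventional replicate 2, 5.33 in E. coli replicate 1 and 10.4 and 9.50 in the germ-free lists. These calls cannot be told apart from acetylation of Eef2, whose start lay 1265 bp from the region.

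Among 20 structural and catalytic RNAs, Terc, the telomerase RNA, had an interval in conventional replicate 2 alone (fold 5.79). Scarna2, a Cajal body RNA, had 5.66 and 7.24 in the conventional lists and 5.70 in germ-free replicate 2. The minor spliceosome RNA Rnu11 had 5.79 in conventional replicate 2 and 3.80 in germ-free replicate 2. The vault RNA Vaultrc5 had 5.79 in conventional replicate 2 and 4.04 in germ-free replicate 1. Of the same list, Rmrp, Rpph1, Rnu12 and Scarna13 had promoter intervals only together with a coding transcript.

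By group, 50 of the 321 regions were called in both conventional, 16 in both E. coli and 55 in both germ-free libraries. Among all 12523 promoter regions these numbers were 1937, 271 and 2127, so the E. coli count was the lowest there too. Of the 50 called in both conventional libraries, 29 (58.0%) were called in neither E. coli library, against 61.5% of all promoter regions called in both conventional libraries (9.52% of all promoter regions). The noncoding promoters were thus near the background. The 10 with the best mean rank in the conventional lists were Numb, 2310001H17Rik, 4931440J10Rik, Gm10649, 2010010A06Rik, Gm15417, Dleu2, Gm13375, Btnl5 and E130102H24Rik. Both conventional calls at 4931440J10Rik and that of replicate 2 at Gm13375 were intervals shared with a coding gene. Numb, an inhibitor of Notch signalling, was listed for a noncoding transcript, with a region 29 bp past the start it shares with a coding one. It had folds of 7.78 and 10.9 in the conventional lists, none in the E. coli lists and 6.93 and 8.87 in the germ-free lists. Dleu2 is the host of miR-15a and miR-16-1, and the Mir16-1 hairpin lay 49350 bp from the region over its start. The upstream region had 6.37 and 7.97 in the conventional lists, none in the E. coli lists and 4.62 and 9.50 in the germ-free lists. The region over the start was called in E. coli replicate 1 as well, with a fold of 7.10, by an interval 460 to 621 bp past the start.

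Gm15417, 1383 bp from the start of Zbtb7b, had folds of 7.08 and 7.24 in the conventional lists and 5.77 and 12.0 in the germ-free lists at its main region. Gm10649, on the opposite strand 1338 bp from a start of Nr3c2, the mineralocorticoid receptor gene, had 6.37 and 13.8 in the conventional lists and 7.60 in germ-free replicate 2. Without conventional replicate 1, the count of regions in conventional and not in E. coli libraries was 197 in place of 29. With lists of equal length it was 1.

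In the other direction, 1 region was called in neither conventional and both E. coli libraries, 6.25% of the 16, against 0.369% (0.00799% of all promoter regions). It was the pseudogene Speer7-ps1, of a multicopy family, with folds of 7.69 and 6.41 in the E. coli lists and 9.23 in germ-free replicate 1. Left out with the other multicopy regions, it took the count to 0. Without conventional replicate 2, or without E. coli replicate 2, the count was 2.

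Between the conventional and germ-free groups, few regions were called in both libraries of a group and neither of the other. Such a region had to be called in the short list of its group, and those lists called 52 regions in conventional replicate 1 and 68 in germ-free replicate 1. Those called in both conventional and neither germ-free library were 2 (4.0% of 50, against 5.21%, and 0.807% of all promoter regions). They were 2010010A06Rik, with folds of 7.08 and 7.24, and a second Gm15417 region, with 6.37 and 5.07 in the conventional lists. Without conventional replicate 1 the count was 82, and without germ-free replicate 2 it was 22.

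Those called in neither conventional and both germ-free libraries were 6 (10.9% of 55, against 4.8%, and 0.815% of all promoter regions). They were C920006O11Rik, Snhg12 with Snora16a, Snora44 and Snora61, 1700028E10Rik, 1810058I24Rik, Snhg15 (listed as Gm11974) and 2010009K17Rik. The interval at 2010009K17Rik in germ-free replicate 1 was listed as upstream and not as a promoter. Snhg12 had germ-free folds of 5.19 and 5.70 and Snhg15 of 4.62 and 4.43, both host genes of small nucleolar RNAs. A second Snhg15 region was called in conventional replicate 2 with a fold of 4.35. Apart from C920006O11Rik, with 8.24 in germ-free replicate 2, these folds were at or below percentile 59.1 of their lists. The count was 86 without germ-free replicate 1, 12 without germ-free replicate 2, 27 without conventional replicate 2 and 2 with lists of equal length.

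Of the 16 regions called in both E. coli libraries, 0 were called in neither germ-free library, against 0.369% (0.00799% of all promoter regions), with 1 such region without E. coli replicate 2, without germ-free replicate 1, without germ-free replicate 2 or with lists of equal length. Of the 55 regions called in both germ-free libraries, 32 (58.2%) were called in neither E. coli library, against 64.8% (11% of all promoter regions). Oip5os1 had the best mean rank among them in the germ-free lists, followed by Numb, 2310015A10Rik, 1700008J07Rik and 0610039K10Rik. The interval at 0610039K10Rik in germ-free replicate 2 was shared with the coding gene Serinc3. 1700008J07Rik lies over a start of Srcap, a chromatin remodeler gene, on the opposite strand, with folds of 6.35 and 10.1 in the germ-free lists. Without germ-free replicate 1 the count was 195, and with lists of equal length it was 2. Of all 321 regions, 10 were called in both conventional and both germ-free libraries and in neither E. coli library. That pattern was not counted over all promoter regions, so the 10 have no background. In 1 or both E. coli libraries, 31 (9.66%) of the 321 were called, against 8.82% of all promoter regions. All but 1 of those 31 were also called in a conventional or germ-free library.

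**Figure D5:**
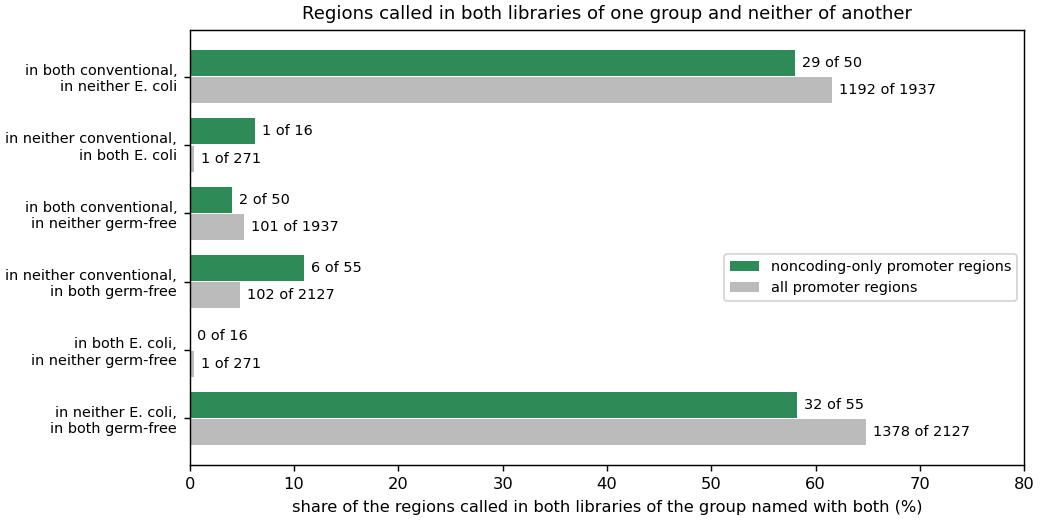
Share, in percent, of the regions called in both libraries of a group that were called in neither library of another, for the noncoding-only promoter regions and for all promoter regions, with the counts printed. The shares of noncoding-only and all promoter regions are close in both comparisons of conventional and germ-free with missing E. coli calls (58.0 and 61.5%, 58.2 and 64.8%), and the other counts rest on 6 regions or fewer.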

How the data were processed

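H3K9ac libraries of intestinal epithelial cells were grouped by the housing given in the labels (3 groups of 2). Per the labels, each library had 20 M single-end reads of 50 bp. The submitters' processing notes name mm10, MACS2 2.1.1.20160309 and Bowtie 1.2.0. Options of the peak calls, and any input control, are not given in the sources used. The deposited files were 1 peak list per library, so peaks were called per sample. They gave the pileup signal at the summit, the -log10 p-value and -log10 q-value, the fold ratio of pileup to background, and the authors' region class and RefSeq transcripts. In that of germ-free replicate 2, deposited without a pileup, lines had 13 cells under 14 names, and columns were identified from their values. Repeated lines of an interval were collapsed to the strongest, and mitochondrial intervals were left out.

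Genes were matched to RefSeq (GRCm38.p6) by accession for 220 of 234 transcripts and by accession, symbol or synonym for 230 of 232 symbols. Distances to coding starts use a promoter table that is not complete, so they are upper limits. Numbers and shares were compared by exact permutation of libraries, two-sided, at a threshold of 0.05. Regions are not replicates, so counts of calls have no test and stand beside the same count over all promoter regions. Percentiles rank folds within 1 list. Named regions were those called in all 6 libraries, small RNA genes, the 10 best ranked per ordered pair of groups, the 10 with the best mean rank and the listed genes. Members and lists were chosen with earlier results of these data known. Alternatives were a q threshold, lists of equal length, other membership and overlap rules, each library left out and a replicate block. Deviations of same-numbered libraries over the 321 regions had an r of 0.0275 for conventional and E. coli libraries. It was -0.261 for conventional and germ-free and 0.0595 for E. coli and germ-free libraries. A correlation over regions takes no account of list length, and replicate 2 was the long list in both the conventional and the germ-free group. Whether the numbers pair the libraries cannot be told from these values. Scripts, tested on simulated lists, ran under Python 3.11.15 with SciPy 1.17.1, NumPy 2.4.6, matplotlib 3.10.9 and pandas 2.3.3.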

Additional observations from a re-analysis of the deposited data

How the results depend on the processing

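With 2 libraries a group the design cannot reach a p of 0.05, and the calls depend on list length. Under the replicate block the differences were the same and the smallest exact permutation p was 0.5, which conventional minus E. coli had (2.15 in log2 number). Leaving out each library in turn gave, for conventional minus E. coli, 1.15 to 3.14 in log2 number and -2.42 to -0.536 percentage points in share. Conventional minus germ-free ran from -1.12 to 0.87 and from -0.164 to 0.0979, and E. coli minus germ-free from -3.09 to -1.45 and from 0.503 to 2.39. Counts of regions ran from 13 to 17 for those called in every library, 29 to 197 for both conventional and neither E. coli, 1 to 2 for neither conventional and both E. coli, 2 to 82 for both conventional and neither germ-free, 6 to 86 for neither conventional and both germ-free, 0 to 1 for both E. coli and neither germ-free, and 32 to 195 for neither E. coli and both germ-free. At a -log10 q of 5 or more, the count for both conventional and neither E. coli was 9, for neither conventional and both E. coli 0, for neither conventional and both germ-free 2 and for neither E. coli and both germ-free 11. With 868 intervals per list, where fewer are left to call, these were 1, 1, 2 and 2, and those for both conventional and neither germ-free and for both E. coli and neither germ-free were 1 each. With any noncoding transcript in place of all, the share difference of conventional minus germ-free was 0.0390 percentage points, and the cause was not tested. Leaving out multicopy regions, a choice made after seeing the data, took the count for neither conventional and both E. coli to 0. A stricter overlap, calls by member intervals alone and leaving out coding genes' transcripts kept each count near its value and turned no direction.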
